A study of Mus musculus with 10 samples.

Results

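The expression of 37 endothelial, blood-brain barrier and pericyte genes was examined in embryonic mouse telencephalon. Blood vessels grow into the forebrain from outside it, and RNA of dissected tissue includes RNA of vessel cells. The genes were chosen by name as known markers of these cells and not by a measured value, but with earlier results of these data known. They are 37 of the 43629 gene identifiers in the count tables. All 37 members of the set passed the filter on low counts, which left 17039 genes for testing. Of the 37, 27 are endothelial genes and 10 are pericyte genes.

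The samples were dorsal telencephalon of C57BL/6 mouse embryos at embryonic stage E14.5. The 5 controls had 1 floxed Dot1l allele (Dot1l-cKO f/+) and no Cre. The 5 conditional knockouts (Dot1l-cKO) had both Dot1l alleles floxed (Dot1l-cKO f/f) and carried 1 Cre allele. Dot1l encodes the methyltransferase of histone H3 lysine 79. Cre is active in the epithelium of the telencephalon. A group with Cre and unfloxed Dot1l was not part of the comparison, so effects of the Cre allele and of the Dot1l deletion cannot be told apart. The labels number the samples 1 to 5 in each group and do not say whether a sample was 1 embryo, so that the tests below measure the spread between samples, whatever its source.

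Endothelial cells line the vessel lumen and are joined by claudin and cadherin junctions. In the brain they form the blood-brain barrier with transporters for glucose, lipids and hormones and with efflux pumps, and pericytes, which are recruited by PDGF-B, wrap the capillary wall. ETS factors such as ERG and FLI1 and SOX factors such as SOX17 and SOX18 are known to drive endothelial genes. Since bulk tissue was measured, the number of vessel cells, the RNA per vessel cell and RNA of other cells cannot be told apart in any value below.

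The libraries held 54202349 to 66556034 counts. Values per library are CPM, the counts of a gene per 1000000 counts of the library after TMM scaling, and differences are log2 fold changes of Dot1l-cKO over control. Dot1l itself had 31.4, 41.5, 36.6, 40.6 and 36.3 CPM in controls 1 to 5 and 42.3, 20.1, 39.6, 43.4 and 51.7 in Dot1l-cKO 1 to 5, a log2 fold change of 0.081 (adjusted p = 0.864). The counts cover the whole gene and do not resolve the floxed part, so they do not check the genotype labels. Markers of dorsal telencephalon were expressed in every library, with 89.7 ± 15.1 CPM of Emx1 in controls and 73.4 ± 6.92 in Dot1l-cKO, and with 195 ± 34.5 CPM of Tbr1 in controls and 224 ± 76.9 in Dot1l-cKO (SD, n = 5). Among the markers named, which also comprised Emx2, Eomes, Neurod2, Neurod6 and Pax6, Pax6 passed the test and was lower in Dot1l-cKO (log2 fold change -0.36, adjusted p = 0.0294).

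Promoter sequences were at hand for 25 of the 37 genes (RefSeq, build GRCm38.p6, 31 windows of 250 bases before an annotated start, since some genes have several). Windows of 4 genes are shown because the results turn on their genes. Slco1c1 had the largest difference between genotypes, and Flt1, Tie1 and Cldn5 are 3 of the genes whose levels were high and low in much the same libraries. The letters AGGAAG or CGGAAG (ETS core) and ACAATG (SOX core) were searched on both strands, and matches are in capitals. Slco1c1 lies at chr6:141524104-141524353 on the plus strand, Flt1 at chr5:147726012-147726261 on the minus strand, Tie1 at chr4:118489850-118490099 on the minus strand and Cldn5 at chr16:18776597-18776846 on the plus strand.
Slco1c1: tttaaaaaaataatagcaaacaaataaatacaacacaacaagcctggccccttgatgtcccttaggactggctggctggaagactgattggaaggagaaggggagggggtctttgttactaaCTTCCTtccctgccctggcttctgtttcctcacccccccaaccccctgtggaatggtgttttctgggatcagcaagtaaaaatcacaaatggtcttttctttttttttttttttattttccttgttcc
Flt1: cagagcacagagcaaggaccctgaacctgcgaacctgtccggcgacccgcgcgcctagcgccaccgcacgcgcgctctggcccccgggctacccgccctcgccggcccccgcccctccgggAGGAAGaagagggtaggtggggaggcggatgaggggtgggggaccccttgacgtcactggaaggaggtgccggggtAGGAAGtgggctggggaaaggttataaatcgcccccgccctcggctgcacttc
Tie1: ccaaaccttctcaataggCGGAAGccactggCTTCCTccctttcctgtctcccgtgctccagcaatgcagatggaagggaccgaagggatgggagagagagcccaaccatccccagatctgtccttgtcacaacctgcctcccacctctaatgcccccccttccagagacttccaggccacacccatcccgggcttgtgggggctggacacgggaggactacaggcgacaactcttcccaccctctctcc
Cldn5: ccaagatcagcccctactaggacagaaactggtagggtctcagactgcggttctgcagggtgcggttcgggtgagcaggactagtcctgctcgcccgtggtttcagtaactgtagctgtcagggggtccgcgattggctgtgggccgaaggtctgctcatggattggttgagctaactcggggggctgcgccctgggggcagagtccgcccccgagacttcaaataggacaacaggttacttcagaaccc

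AGGAAG stood in 16 of the 31 windows of the members, belonging to 13 of the 25 genes, and in 29.5% of all 32851 windows of this length in the RefSeq set. CGGAAG stood in 1 of the 31 windows, that of Tie1, against 13.6% of all windows, and ACAATG in 2 against 10.7%. A match describes letters only. Cldn5 and Kdr, whose levels also peaked in Dot1l-cKO 5 as that of Tie1 did, had none of these letters in the 250 bases. No promoter entry was found for Angpt2, Higd1b, Cdh5, Pdgfb, Ndufa4l2, Sox17, Esam, Pecam1, Pdgfrb, Sox18, Fli1 or Aplnr.

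None of the 37 genes passed the edgeR test between genotypes without a covariate, and 1, Slco1c1, passed with the replicate number as a block. Across all genes, edgeR's quasi-likelihood test called 1212 of 17039 at an adjusted p under 0.05, which is 7.11%, with 966 higher and 246 lower in Dot1l-cKO. Of the vessel genes 0 of 37 were called by edgeR and 2 had an unadjusted p under 0.05, Slco1c1 and Ndufa4l2, beside 20.6% of all genes tested. DESeq2 called 1 of the 37, beside 2011 of all 19302 genes it tested. Limma on the normalised counts called 0, beside 1215 of 17039. Log2 fold changes were above 0 for 15 genes and below 0 for 22, with a median of -0.03 beside -0.0056 over all genes tested, and 31 of the 37 lay within 1 SE of 0. They ran from -0.29 for Emcn to 0.72 for Slco1c1, and the adjusted p from 0.105 to 0.995.

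The size of difference that the data leave room for differed between the genes. For 33 of the 37 genes the 95% interval of the log2 fold change lay within -1 and 1. The same held for 81.3% of all genes tested. The 4 genes whose intervals reached past these bounds were Slco1c1, whose upper bound was 1.24, and the pericyte genes Anpep, Vtn and Tbx18. The narrowest SE was 0.12, for Mfsd2a, and the widest 0.86, for Tbx18. In none of the 37 genes did the CPM of the 5 Dot1l-cKO libraries lie all above or all below the 5 controls, which 8.34% of all genes tested did.

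**Figure D1:**
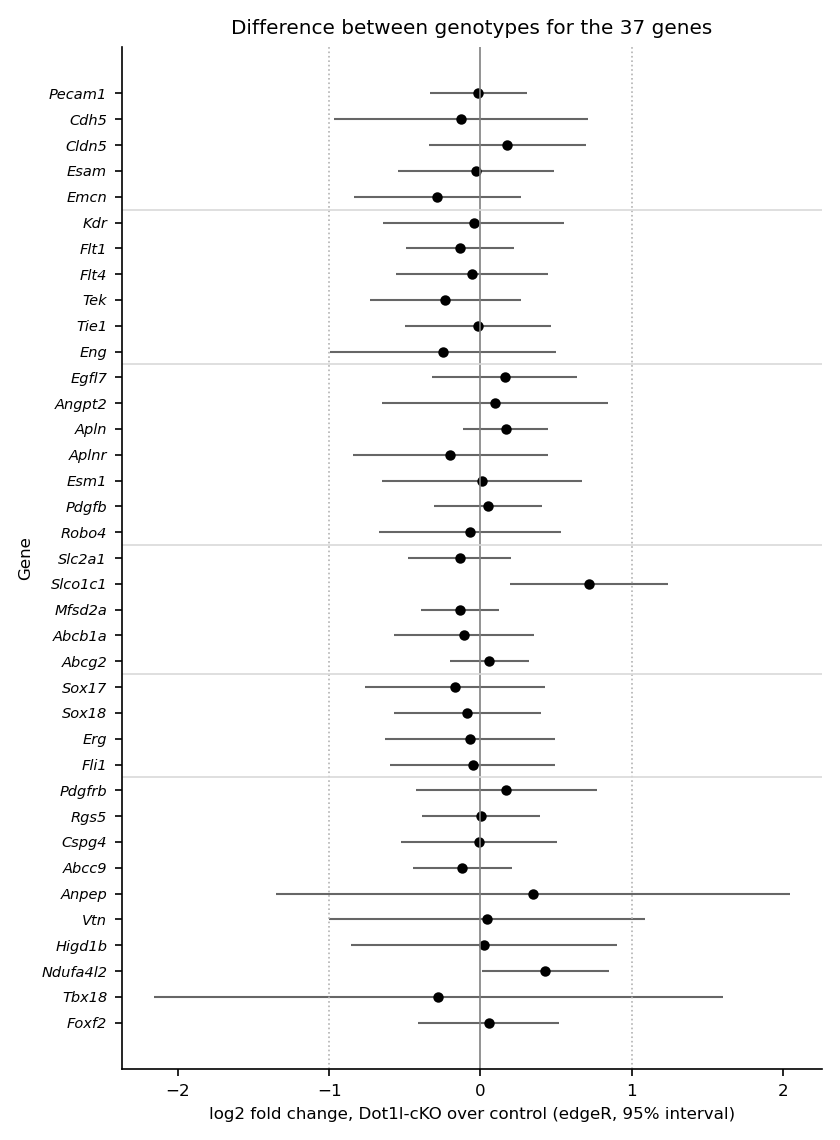
Log2 fold change of Dot1l-cKO over control (horizontal axis) for each of the 37 genes (vertical axis), with the 95% interval from edgeR as a line; grey lines part the roles and dotted lines mark -1 and 1. Most points lie near 0, Slco1c1 stands apart at 0.72, and the intervals of Anpep, Vtn and Tbx18 are the widest.

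The junctions and surface of the endothelium were represented by 5 members. Cldn5, the main claudin of brain endothelial tight junctions, had 25.5, 23.9, 37.7, 22.1 and 38.5 CPM in controls 1 to 5 and 35.5, 24.0, 28.5, 26.0 and 53.2 in Dot1l-cKO 1 to 5. Pecam1, the adhesion molecule CD31, had 25.1, 24.3, 33.3, 22.7 and 29.8 CPM in controls and 25.0, 22.1, 25.0, 25.4 and 36.4 in Dot1l-cKO. Cdh5, the cadherin of endothelial adherens junctions, had 19.9, 15.0, 30.9, 15.8 and 27.9 CPM in controls and 21.2, 7.91, 14.1, 15.4 and 41.5 in Dot1l-cKO. In each of the 3 genes Dot1l-cKO 5 was the highest library, and the groups overlapped.
The log2 fold change of Cldn5 was 0.18 (95% interval -0.34 to 0.70), that of Pecam1 -0.014 (-0.33 to 0.31) and that of Cdh5 -0.13 (-0.97 to 0.71). Esam, another adhesion molecule, gave -0.03, and Emcn, a sialomucin of the surface, gave -0.29 with an interval of -0.84 to 0.27. None passed the test, and the lowest adjusted p among the 5 was 0.580. Cldn5 had the highest level per length of all 37 genes, 20.9 RPKM (counts scaled by library size and summed exon length) on average in controls, followed by the glucose transporter Slc2a1 with 20.5.

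Growth factor receptors made up 6 members. Kdr, the main VEGF receptor of endothelium, had 45.8, 43.2, 80.7, 36.7 and 57.1 CPM in controls and 44.5, 35.6, 54.4, 35.3 and 85.7 in Dot1l-cKO. Tie1, which acts with the angiopoietin receptor, had 16.9, 16.2, 24.0, 15.3 and 22.7 CPM in controls and 17.6, 13.2, 17.4, 15.4 and 30.4 in Dot1l-cKO. Flt1, the VEGF receptor that also serves as a decoy, had 15.5, 15.6, 23.2, 14.8 and 20.5 CPM in controls and 17.6, 12.5, 16.9, 14.2 and 20.5 in Dot1l-cKO. Control 3 and Dot1l-cKO 5 stood at the upper end of each, and the groups overlapped.
None of the 6 receptors passed the test, and 5 of the 6 estimates lay within 1 SE of 0. They ran from -0.016 (Tie1) to -0.25 (Eng, a co-receptor for BMP9 and TGF-beta), and adjusted p from 0.624 to 0.982. Tek, the angiopoietin receptor, gave -0.23 (95% interval -0.73 to 0.27), and Flt4, the receptor for VEGF-C, gave -0.057 (-0.56 to 0.45). Kdr gave -0.045 (-0.64 to 0.55) and Flt1 -0.13 (-0.49 to 0.22).

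Secreted factors, their receptors and guidance receptors made up 7 members. Aplnr, the apelin receptor of sprouting vessels, had 18.6, 18.2, 33.3, 14.9 and 25.6 CPM in controls and 20.1, 13.2, 15.4, 13.2 and 34.4 in Dot1l-cKO. Egfl7, a matrix protein secreted by endothelium, had 8.32, 9.03, 13.7, 7.89 and 12.5 CPM in controls and 11.3, 9.14, 10.2, 9.18 and 17.7 in Dot1l-cKO. Apln, the ligand of Aplnr that tip cells make, had 9.69, 9.24, 10.7, 10.6 and 10.6 CPM in controls and 8.87, 10.6, 13.8, 13.5 and 10.3 in Dot1l-cKO. Apln did not follow the other 2: its highest libraries were Dot1l-cKO 3 and 4, in which Aplnr stood below its control mean of 22.1 CPM, and Dot1l-cKO 5 held 10.3 CPM.
The log2 fold changes were 0.17 for Apln (95% interval -0.12 to 0.45), 0.16 for Egfl7 (-0.32 to 0.64) and -0.20 for Aplnr (-0.84 to 0.44). Pdgfb, the ligand that recruits pericytes, gave 0.048 (-0.31 to 0.41) and its receptor in pericytes, Pdgfrb, gave 0.17 (-0.43 to 0.77). Angpt2, a ligand of Tek, gave 0.10, Robo4, a guidance receptor of endothelium, -0.07, and Esm1, a proteoglycan of tip cells, 0.0093. Esm1 was the lowest of all members per length, with 0.247 RPKM in controls. None of the 7 passed the test.

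The transporters of the blood-brain barrier held the 1 member that stood apart. Slc2a1, the glucose transporter GLUT1, had 68.5, 62.8, 87.9, 63.8 and 76.6 CPM in controls and 72.8, 46.5, 62.6, 58.8 and 86.5 in Dot1l-cKO. Mfsd2a, which carries lysolipids and limits transcytosis, had 29.8, 24.5, 26.6, 31.7 and 31.4 CPM in controls and 28.5, 21.7, 22.3, 31.1 and 27.5 in Dot1l-cKO. Abcg2, an efflux pump, had 22.1, 21.6, 27.9, 21.3 and 23.4 CPM in controls and 25.2, 26.7, 23.5, 18.3 and 27.5 in Dot1l-cKO. These 3 genes varied less between libraries than the median member, and Mfsd2a varied least, by 1.46-fold between its highest and its lowest library.
Their log2 fold changes were -0.14 (95% interval -0.48 to 0.20), -0.13 (-0.39 to 0.12) and 0.06 (-0.20 to 0.32), and none passed the test. Mfsd2a was lower in Dot1l-cKO than in the control of the same number for all 5 numbers, with an adjusted p of 0.576 in edgeR without a block. The share of all genes with 1 direction in all 5 numbers was not computed, so this agreement is not read as a result. Abcb1a, which encodes the efflux pump P-glycoprotein, gave -0.11. Whether it shares reads with the related gene Abcb1b was not tested.

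Slco1c1, the carrier of thyroid hormone into the brain, lies at chr6:141524368-141570177 on the plus strand. It had 7.72, 3.47, 8.68, 5.23 and 7.47 CPM in controls 1 to 5, a mean of 6.52 ± 2.12 (SD, n = 5). In Dot1l-cKO 1 to 5 it had 13.4, 9.23, 9.16, 8.66 and 13.1 CPM, a mean of 10.7 ± 2.33 (SD, n = 5). Every Dot1l-cKO library exceeded the control of the same number, a pattern whose share over all genes was not computed. The groups overlapped only through Dot1l-cKO 4, which lay just below control 3.
The log2 fold change was 0.72 (SE 0.24, 95% interval 0.19 to 1.24), with an adjusted p of 0.105 in edgeR, so Slco1c1 did not pass. With the replicate number as a block it did, at 0.76 on the log2 scale (adjusted p = 0.0369), as 1 of 37 members, beside 9.41% of all genes in that fit. DESeq2, which called 2011 of 19302 genes, gave 0.69 and an adjusted p of 0.0400. Leaving out 1 library at a time gave 0.56 to 0.84 with adjusted p from 0.0630 to 0.217, and without control 3 and Dot1l-cKO 5 the adjusted p was 0.123. Slco1c1 was singled out after its values were seen.
Choroid plexus also makes Slco1c1, and 7 plexus markers (Ttr, Folr1, Kl, Clic6, Kcne2, Aqp1 and Otx2) summed to 562, 13.7, 663, 3.16 and 3.15 CPM in controls and 53.5, 9.73, 33.4, 5.14 and 161 in Dot1l-cKO. Of the 7, edgeR, DESeq2 and limma called 0, beside 7.11% of all genes in edgeR. At an unadjusted p under 0.05 edgeR found 0 of the 7, beside 20.6% of all genes. The 95% interval lay within -1 and 1 for 0 of the 7, beside 81.3% of all genes, with SEs of 0.47 to 1.83. Differences beyond these bounds are thus not excluded for the plexus markers. Among controls the sum was highest in 1 and 3, where Slco1c1 was 7.72 and 8.68 CPM. Among Dot1l-cKO libraries it was highest in 1 and 5, where Slco1c1 was 13.4 and 13.1 CPM. The part of plexus tissue in the result was not tested.

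Transcription factors of endothelium made up 4 members. Fli1, an ETS factor, had 6.57, 5.86, 10.7, 5.15 and 7.33 CPM in controls and 7.09, 5.32, 5.99, 5.08 and 10.9 in Dot1l-cKO. Erg, the other ETS factor, had 3.06, 3.47, 5.67, 3.53 and 4.47 CPM in controls and 3.26, 2.67, 3.40, 3.33 and 6.60 in Dot1l-cKO. Sox18 had 2.37, 3.17, 4.51, 2.66 and 3.32 CPM in controls and 2.83, 2.08, 3.12, 2.70 and 4.40 in Dot1l-cKO. Control 3 and Dot1l-cKO 5 held the highest values of their groups in all 3, and the groups overlapped.
The log2 fold changes of the 4 factors all lay within 1 SE of 0, -0.052 for Fli1 (95% interval -0.59 to 0.49), -0.069 for Erg (-0.63 to 0.50), -0.086 for Sox18 (-0.57 to 0.40) and -0.17 for Sox17 (-0.77 to 0.43). None passed the test, and the lowest adjusted p was 0.784. Microglia also express Fli1. Of 11 microglia and macrophage markers 8 were higher in Dot1l-cKO (adjusted p under 0.05), beside 7.11% of all genes called in either direction. Among the 8 were P2ry12 (log2 fold change 1.10) and C1qa (1.04), while Ptprc, Mrc1 and Fcgr3 did not pass. The 11 markers summed to 43.6 to 105 CPM in controls and 90.3 to 169 in Dot1l-cKO. The part of microglia in the level of Fli1 was not tested.

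Pericytes were marked by 10 members. Rgs5, a regulator of G-protein signalling, had 62.3, 39.8, 58.5, 53.6 and 60.3 CPM in controls and 79.3, 39.2, 50.1, 49.8 and 56.7 in Dot1l-cKO. Pdgfrb, the receptor for PDGF-B, had 20.2, 17.8, 32.2, 18.5 and 27.7 CPM in controls and 26.1, 14.8, 26.3, 19.4 and 44.4 in Dot1l-cKO. Vtn, the matrix protein vitronectin, had 18.7, 14.7, 38.3, 10.3 and 30.5 CPM in controls and 29.7, 8.98, 15.6, 12.4 and 49.2 in Dot1l-cKO. For Pdgfrb and Vtn the highest and the lowest library were both Dot1l-cKO, 5 and 2, and the Rgs5 levels ranked the libraries differently, with Dot1l-cKO 1 on top.
Rgs5 gave a log2 fold change of 0.0029 (95% interval -0.39 to 0.39), with means of 54.9 ± 9.06 CPM in controls and 55.0 ± 15.0 in Dot1l-cKO (SD, n = 5). None of the 10 passed the test. Cspg4, the proteoglycan NG2, gave -0.0084, Abcc9, a subunit of potassium channels, -0.12, Higd1b 0.023 and the transcription factor Foxf2 0.054. Ndufa4l2, a mitochondrial protein enriched in pericytes, had 1.41, 1.37, 1.92, 1.98 and 2.40 CPM in controls and 2.42, 1.93, 2.17, 2.73 and 3.00 in Dot1l-cKO. It was higher in Dot1l-cKO than in the control of the same number for all 5 numbers, a pattern whose share over all genes was not computed. Its log2 fold change of 0.43 had an adjusted p of 0.234 in edgeR without a block.
Anpep, an aminopeptidase, and Tbx18, a transcription factor, varied most of all members. Anpep had 1.75, 0.842, 2.72, 0.763 and 2.26 CPM in controls and 2.00, 0.156, 0.875, 0.648 and 6.94 in Dot1l-cKO, a 44.5-fold range. Tbx18 had 4.24, 5.58, 14.7, 0.779 and 7.33 CPM in controls and 6.25, 0.867, 4.55, 0.437 and 14.8 in Dot1l-cKO, a 33.9-fold range. Both ranges were spanned by the Dot1l-cKO libraries alone. The log2 fold changes, 0.35 for Anpep (-1.35 to 2.05) and -0.28 for Tbx18 (-2.16 to 1.6), had the widest intervals of the 37 genes.

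The levels of the 37 genes differed between libraries of the same genotype. The highest library exceeded the lowest by a median of 2.30-fold over the members, beside 1.71-fold over all genes tested, and 33 of the 37 were above that median. Dot1l-cKO 5 was the highest library for 21 members, control 3 for 9 and control 5 for 3. Dot1l-cKO 2 was the lowest for 22 members, control 4 for 6 and Dot1l-cKO 4 for 5. Controls and Dot1l-cKO thus both had libraries at the upper and at the lower end.

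**Figure D2:**
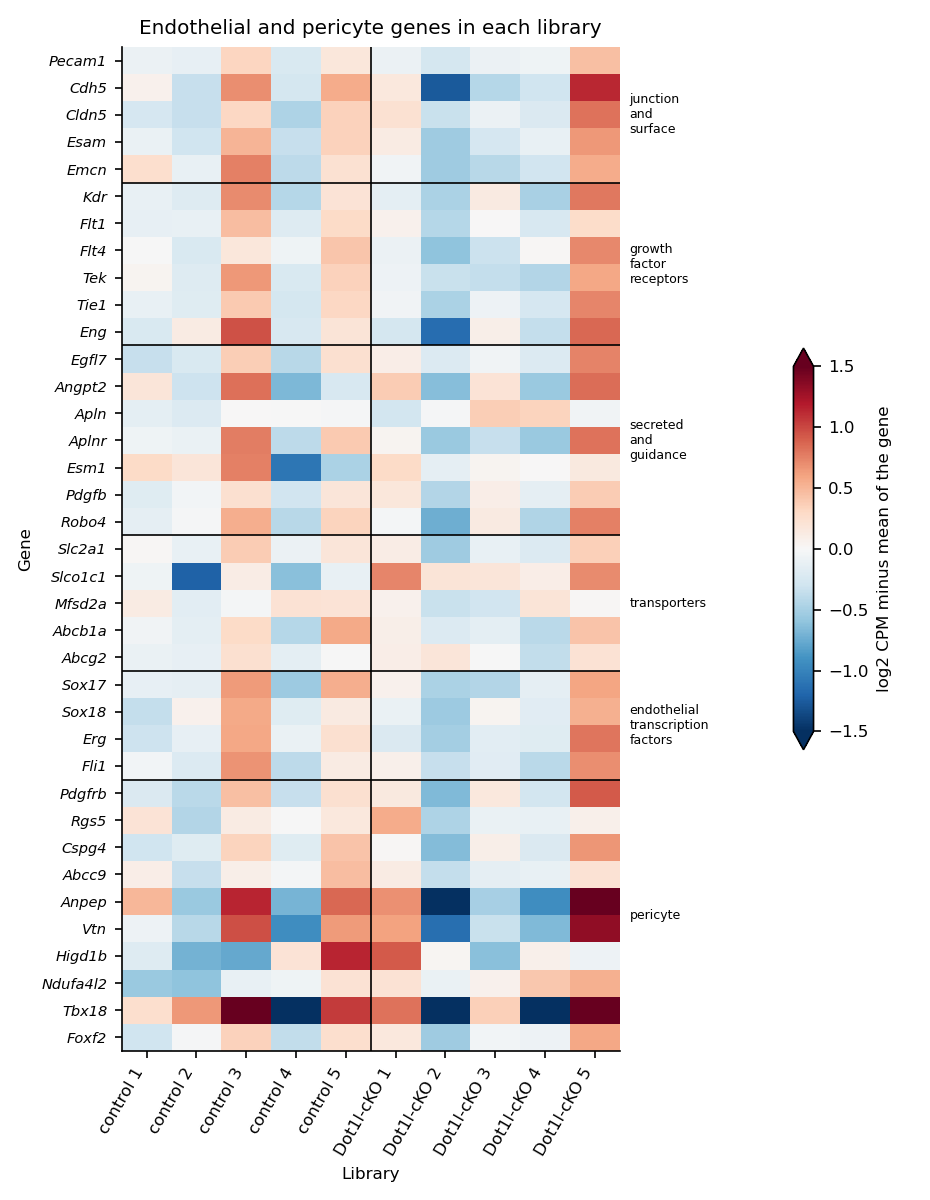
Log2 CPM of each of the 37 genes (rows, grouped by role) in each of the 10 libraries (columns, controls left of the line), minus the mean of the gene. Control 3 and Dot1l-cKO 5 are above the mean for most genes and Dot1l-cKO 2 is below for most, while Apln and Higd1b do not follow; values beyond 1.5 share the end colours.

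Summed over the 27 endothelial members, controls 1 to 5 had 391, 362, 561, 349 and 483 CPM and Dot1l-cKO 1 to 5 had 423, 309, 388, 352 and 612 CPM. The 10 pericyte members summed to 141, 108, 186, 117 and 176 CPM in controls and 182, 90.7, 131, 116 and 219 in Dot1l-cKO. Both sums were highest in Dot1l-cKO 5 and lowest in Dot1l-cKO 2. The 10 meningeal fibroblast markers (Col1a1, Col1a2, Col3a1, Dcn, Lum, Pdgfra, Slc6a13, Foxd1, Aldh1a2 and Ogn) summed to 179.6, 223, 914, 31.0 and 340.1 CPM in controls and 314, 34.8, 229.9, 32.1 and 841 in Dot1l-cKO, and none of the markers was at 0 in any library.
The meningeal sum was highest in control 3 and Dot1l-cKO 5, the libraries with the highest endothelial sums, and under 35 CPM in control 4 and in Dot1l-cKO 2 and 4, the libraries with the lowest. Between genotypes edgeR, DESeq2 and limma called 0 of the 10 markers, beside 7.11% of all genes in edgeR. At an unadjusted p under 0.05 edgeR found 0 of the 10, beside 20.6% of all genes. Cells of the meninges also express Pdgfrb, Tbx18, Anpep, Vtn and Foxf2, and their part in the level of these genes was not tested. With control 3 and Dot1l-cKO 5 left out, again 0 of 37 members were called, beside 1051 of 16964 genes.

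**Figure D3:**
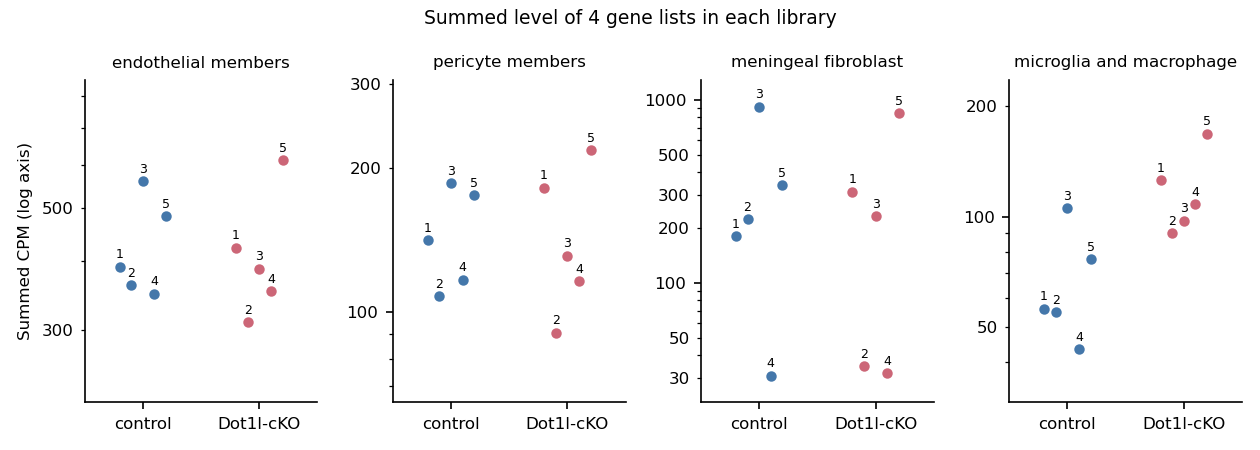
Summed CPM (log axes) of the 27 endothelial members, the 10 pericyte members, 10 meningeal fibroblast markers and 11 microglia and macrophage markers in each library, with the replicate number above each point. The first 3 panels have control 3 and Dot1l-cKO 5 on top of their groups and overlap between genotypes, and in the microglial panel Dot1l-cKO 5 is highest and controls 1, 2, 4 and 5 are lowest.

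The erythroid genes, 9 globin and red cell genes, summed to 598 to 2551 CPM in controls and 910.4 to 2244 in Dot1l-cKO. Of the 9, edgeR, DESeq2 and limma called 0, beside 7.11% of all genes in edgeR. At an unadjusted p under 0.05 edgeR found 0 of the 9, beside 20.6% of all genes. The highest erythroid sums were again in control 3 and Dot1l-cKO 5. Divided by the summed CPM of the 5 junction and surface members of the same library, Slco1c1 came to 0.0666 ± 0.0154 in controls and 0.114 ± 0.0227 in Dot1l-cKO (SD, n = 5), and the groups still overlapped. On that scale, too, 0 of 37 members had groups that did not overlap, beside 2.59% of all genes tested. The 5 junction and surface members are themselves part of the sum, so their own ratios were not free to vary as those of other genes. The scale was chosen after the data were seen.

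**Figure D4:**
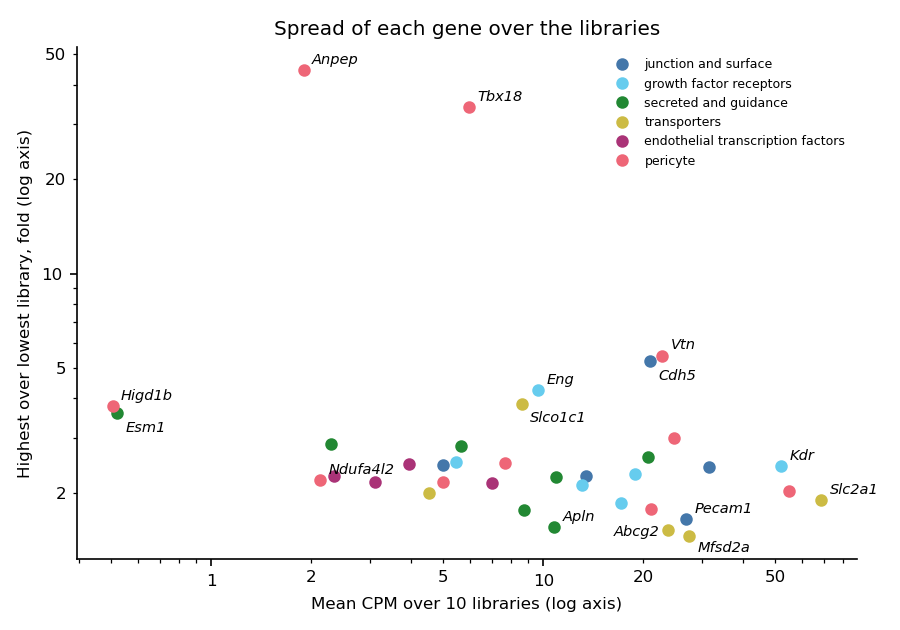
Highest over lowest library (vertical log axis, fold of CPM) against mean CPM over the 10 libraries (horizontal log axis) for the 37 genes, coloured by role. Anpep and Tbx18 stand apart at 44.5 and 33.9, and Mfsd2a, Abcg2 and Apln vary least.

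The estimates of most members did not have the same sign in 2 sets of libraries. A number in the column names of the normalised tables, of unstated meaning, is 57 for replicates 2 and 3 of both genotypes and another value for the other 6 libraries. Libraries with this number had 0.0471 to 0.492% of their counts on mitochondrial rRNA, and the others 5.79 to 10.9%. Within number 57, which holds control 3 and Dot1l-cKO 2, the mean log2 CPM of 32 of the 37 members was lower in Dot1l-cKO (median difference -0.43). Within the other 6, which hold Dot1l-cKO 5, it was higher for 33 (median difference 0.17). Over all genes tested, the median log2 fold change in edgeR was 0.0058 within number 57 and 0.00059 within the other 6. Many members were high and low in the same libraries, so their signs are not independent observations.
The sign was opposite in 30 members and the same in 7. A test of the difference itself (interaction term in edgeR, added after the data were seen) called 0 of 37 members and 0 of 17039 genes. At an unadjusted p under 0.05 it found 0 members and 1071 genes. The lowest adjusted p of a member was 0.728. Slco1c1 was among the members with 1 sign in both sets, with a difference of 0.74 within number 57 and 0.77 within the other 6.

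Other genes of the same cells and pathways were read from the same fit. They comprised 35 genes of vascular signalling, 35 further endothelial genes and 15 further mural genes, and 82 of the 85 were tested. Of these, 4 passed (beside 7.11% of all genes), 1 higher and 3 lower in Dot1l-cKO, and 12 had an unadjusted p under 0.05 (beside 20.6% of all genes). The signalling list held 3 of the 4, the endothelial list 1 and the mural list 0 of its 14 tested genes, with 0 at an unadjusted p under 0.05 and 0 called by DESeq2 or limma. The replicate block added Itgb8 (log2 fold change -0.25), Lrp6 (-0.26) and Podxl (0.26), and it did not call Plvap. DESeq2 also called Lrp6 (log2 fold change -0.28, adjusted p = 0.0254).
Nrp2, a co-receptor for VEGF-C and semaphorins, had 109, 142, 146, 112 and 165 CPM in controls and 231, 252, 283, 229 and 281 in Dot1l-cKO, and rose by 0.92 (log2; SE 0.12, adjusted p = 0.00144). Nrp1, the co-receptor for VEGF-A and class 3 semaphorins, had 187, 209, 211, 177 and 218 CPM in controls and 139, 151, 139, 128 and 157 in Dot1l-cKO, a log2 fold change of -0.49 (SE 0.081, adjusted p = 0.00450). Wnt7a, a ligand by which neural cells act on brain endothelium, had 37.7, 43.3, 35.3, 40.0 and 36.1 CPM in controls and 26.6, 26.6, 31.2, 28.9 and 21.3 in Dot1l-cKO, a log2 fold change of -0.52 (SE 0.10, adjusted p = 0.0112). In these 3 genes the groups did not overlap. The mean log2 difference within number 57 and within the other 6 libraries was 0.89 and 0.96 for Nrp2, -0.53 and -0.46 for Nrp1, and -0.44 and -0.58 for Wnt7a. All 3 are also known from neurons or neural progenitors of the cortex, and bulk values do not separate these from vessel cells.
Plvap, the diaphragm protein of fenestrated and immature endothelium, had 5.45, 4.91, 8.59, 4.05 and 4.31 CPM in controls and 2.70, 2.46, 2.78, 3.03 and 4.14 in Dot1l-cKO. Every Dot1l-cKO library was below the control of the same number, a pattern whose share over all genes was not computed. The groups overlapped at Dot1l-cKO 5. The log2 fold change was -0.85 (SE 0.22, adjusted p = 0.0424). DESeq2 also called Plvap (-0.88, adjusted p = 0.00216), as did limma (-0.85, adjusted p = 0.0330). In edgeR blocked by replicate number the estimate was -0.82 and the adjusted p 0.0622. Leaving out 1 library at a time in edgeR gave -1.0 to -0.63 with adjusted p from 0.0258 to 0.10. The call was lost without control 1, 2 or 3 or Dot1l-cKO 1, 2, 3 or 4. Within number 57 the log2 fold change was -1.34 and within the other 6 libraries -0.48, neither past the test. Vessels of the choroid plexus are fenestrated. The plexus markers summed to 663 CPM in control 3, which had the most Plvap, and to 562 in control 1 and 13.7 in control 2, which had 5.45 and 4.91 CPM of Plvap. They summed to 3.16 and 3.15 in controls 4 and 5 and to 161 in Dot1l-cKO 5, where Plvap was 4.05, 4.31 and 4.14 CPM. In Dot1l-cKO 1 to 4 they summed to 53.5, 9.73, 33.4 and 5.14, where Plvap was 2.70, 2.46, 2.78 and 3.03 CPM. Their part in the result was not tested. The junction genes Cldn5, Pecam1, Cdh5 and Esam gave 0.18, -0.014, -0.13 and -0.03, and their difference from Plvap was not tested.

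**Figure D5:**
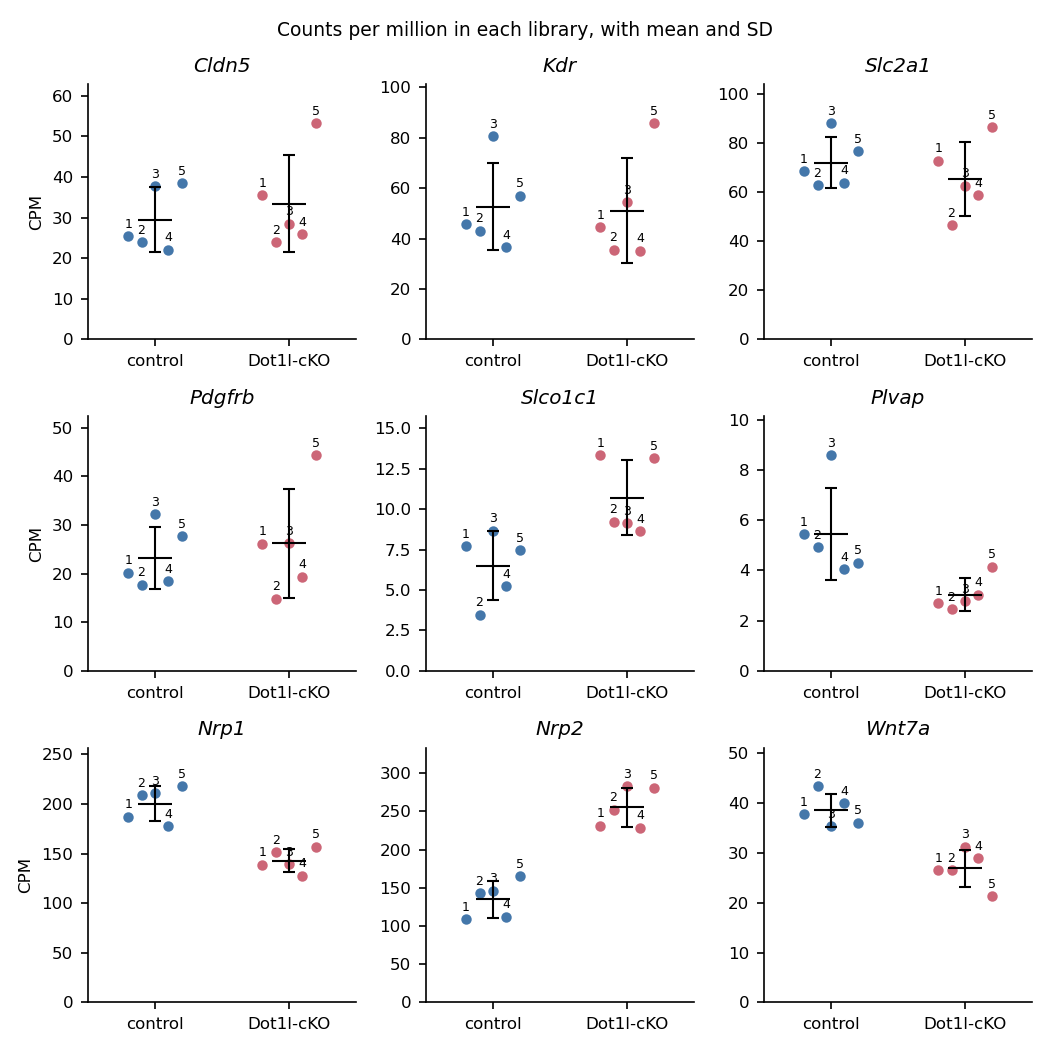
CPM in each library for 9 genes, with the replicate number above each point and the mean and SD as bars (n = 5). Cldn5, Kdr, Slc2a1 and Pdgfrb overlap between genotypes, Slco1c1 has the higher and Plvap the lower mean in Dot1l-cKO with overlap at 1 library, and Nrp1, Nrp2 and Wnt7a do not overlap.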

How the data were processed

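RNA was sequenced from dorsal telencephalon of 5 control and 5 Dot1l-cKO samples at E14.5. The authors trimmed reads with Trim Galore (0.2.8), aligned them to the mouse genome with TopHat2 (2.0.9), counted them per gene and strand with HTSeq (0.6.0), and scaled them with DESeq2 (1.6.1). Versions are from the submitters' processing notes and the study's methods. The deposited counts are whole reads per Ensembl gene. The deposited normalised counts, a signal equal to counts divided by size factors, served only for the limma alternative. No column of values was unmapped (0). Reads carry no molecular identifiers, so counts are not independent molecules, and SEs and intervals rest on the spread between the samples. Libraries held 54202349 to 66556034 counts.

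Gene symbols were matched to 42548 of 43629 identifiers with the GRCm38 annotation, and identifiers without a symbol held 0.268% of counts. Genes were filtered with filterByExpr, scaled by TMM and tested in edgeR (4.0.16, R 4.3.3) with the quasi-likelihood test, no covariate, and Benjamini-Hochberg adjustment over all genes tested, at an adjusted p under 0.05. The authors tested with DESeq2, which was run here (1.42.0) as an alternative, as was limma (3.58.1) on log2(normalised count + 1). RPKM used the summed exon length. No 2 libraries were alike within counting noise (lowest chi-square per degree of freedom 30.8). Tests were checked on simulated counts with 200 changed genes.

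Between samples of the same replicate number, deviations from the group means correlated at 0.229, 0.349, 0.145, 0.597 and 0.131 for numbers 1 to 5. All lay above the limit of 0.1 set for pairing. For numbers 2, 3 and 5 a sample of another number correlated more highly (0.350, 0.446 and 0.294), so the correlations alone do not identify pairs. Control and Dot1l-cKO samples of the same replicate number also shared the number in the column names, whose meaning is not stated. The members and lists were chosen with earlier results of these data known. All 37 members were named, with values per library for the 3 of each role with the highest mean CPM and for the genes a result turned on. From the other lists, genes that passed the test were named. A gene of the tissue list is not reported here.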

Additional observations from a re-analysis of the deposited data

Results flagged for a closer look

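In 2 of 74 groups of 5 libraries (37 genes in 2 genotypes), the level of 1 library stood farther from the rest than Dixon's critical value of 0.71 allows, where chance gives about 1 in 20. Both concern Dot1l-cKO 5. For Pecam1 the gap to the next library was 0.718 of the range of the group on the log2 scale, with 36.4 CPM beside a group median of 25.0. For Erg it was 0.735, with 6.60 CPM beside a median of 3.33.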

How the results depend on the processing

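The number of the 37 genes called was 0 and became 1 with DESeq2 and 1 with the replicate block, in both cases Slco1c1. The block changed no other call of a member. It was 0 in each of the 10 fits that left out 1 library (0 to 0) and in the other alternatives run. Over all genes, 1212 became 2011 with DESeq2, 1 within number 57, 745 within the other 6 libraries, 495 at an adjusted p under 0.01 and 750 to 1357 with 1 library left out. The replicate block called 1604, and a block by the number in the column names called 1818. Of the other vascular genes, 4 became 0 within number 57, 2 within the other 6 libraries, 2 at an adjusted p under 0.01 and 3 to 4 with 1 library left out. Fewer samples enter the fits within sets, and the cause of the other shifts was not tested. In the edgeR fit within the other 6 libraries, Emcn and Tek turned sign, at 0.066 and 0.015. By the difference in mean log2 CPM used above, Tek stood at -0.029 in these libraries and did not turn. The estimates of 31 members lay within 1 SE of 0, and 29 of these changed sign in some of the 20 alternatives. The lowest count of a member in a library was 9, and 1 member fell under 10 counts in any library.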
